A study of Mus musculus with 8 samples.

Results

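The transcriptome of the fructose-fed wild-type (WT) mouse liver was described in the 5 WT livers of the series, out of 8 livers in all. The members were taken from the genotype label, and the 3 livers lacking Rbfox2 were not used. All 5 WT mice had received 30% (w/v) fructose in their drinking water for 22 weeks, and the livers were frozen after the mice had been fasted. The labels gave the genotype as wild-type only, whereas in the study the WT control mice carried Rbfox2 LoxP/LoxP alleles without the Alb_cre transgene, which drives Cre recombinase in hepatocytes. The strain background of these 5 mice was not given. The age at the start of the diet was 8 weeks, and the sex was male unless stated otherwise in the study's methods. No WT liver without fructose was used here, so the values below describe the levels under this diet and not its effect. The 5 samples are labelled as separate samples, with no animal, litter or batch given, so the spread below is that between these samples.

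The liver is built largely of hepatocytes, which secrete most plasma proteins, clear ammonia as urea, make bile acids and glucose, and take up dietary fructose. Fructose is phosphorylated by ketohexokinase, cleaved to trioses, and feeds glucose and fat synthesis. Hepatocytes of male mice also secrete major urinary proteins (MUPs), small lipocalins that carry pheromones into the urine and are encoded by a cluster of near-identical Mup genes. Pulsed growth hormone in males maintains the Mup genes and other male-biased liver genes, whereas a steadier secretion in females favours another set.

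Total counts were 27314057 to 34680661 per library, and a count of 3, the smallest level taken as detected, equalled 0.0875 to 0.107 counts-per-million (CPM). The CPM carry TMM factors (trimmed mean of M-values), which correct for a few very abundant genes. Scaling by library totals instead would place the median gene at -0.23 in WT 3 and 0.20 in WT 5 on the log2 scale, relative to the mean of the mice, and counts of which mouse was highest are given on the TMM scale, with library totals where they differ much. Of 46078 genes in the table, 12266 reached a mean of 1 CPM and were tested. The hepatocyte markers Alb, Apoa1, Ttr, Cps1 and Hnf4a were all present, and 4 genes of the Y chromosome were expressed in every liver, with summed levels of 104, 101, 112, 106 and 102 CPM. Xist, the RNA that coats the inactive X, had a mean of 0.0184 CPM, below the detection level. All 10 pairs of libraries differed by more than sampling noise. A chi-square statistic of their counts over genes, divided by its degrees of freedom, ranged from 45.5 to 226, so each library was used as a separate sample.

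Levels between genes were compared per length, as TPM (transcripts-per-million). Albumin (Alb) was the most abundant nuclear transcript by its mean over the 5 mice, with 39321, 38045, 28725, 39906 and 46131 TPM in WT 1 to 5. Its level was lowest in WT 3, where 8 Mup genes exceeded it, and highest in WT 5. In WT 2, Mup13 alone exceeded it. It was followed by Mup genes, which made up 11 of the 15 most abundant nuclear genes, and by Apoa2, an apolipoprotein of high-density lipoprotein, with 26729, 17498, 15909, 17385 and 18626 TPM. The remaining entries, Gm29216 and Gm28661, are nuclear pseudogene copies of mtDNA on chromosome 1. Their reads could not be told apart from those of the mtDNA genes: the counts of Gm28661 were 99.2 to 99.8% of those of mt-Co2 in each library, and those of Gm29216 were 84.2 to 93.2% of those of mt-Co3. In GRCm38, Alb occupies chromosome 5 from 90460897 to 90476602 and Apoa2 chromosome 1 from 171225054 to 171226379, each on the plus strand.

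**Figure D1:**
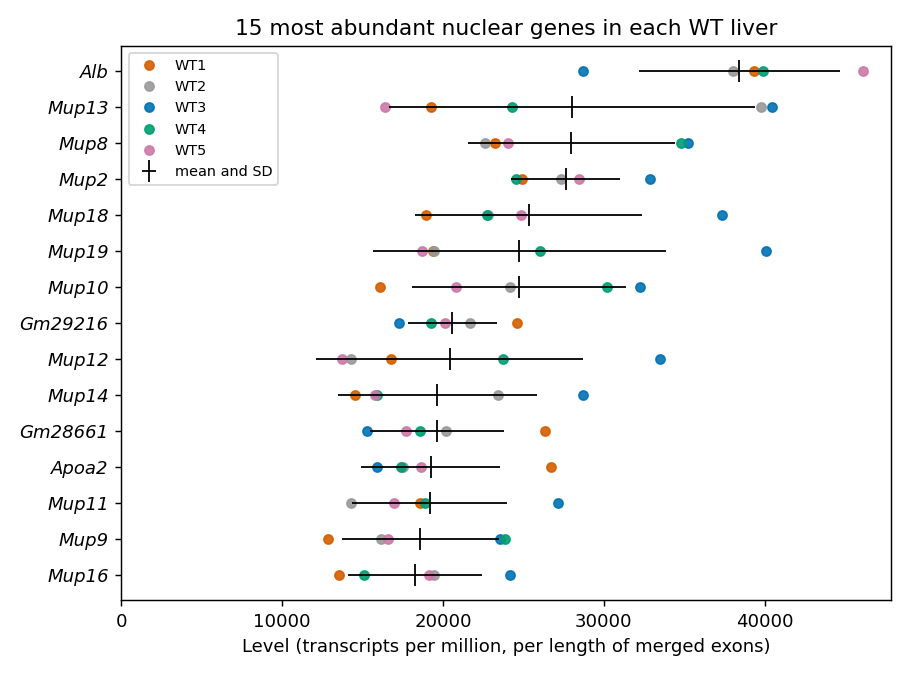
Level of the 15 most abundant nuclear genes in each WT liver, in TPM on a linear axis, with 1 coloured point per mouse and a black mark for the mean and SD over 5 mice. WT 3 was highest for 10 of the 11 Mup genes shown, with Mup9 highest in WT 4 on this scale, and lowest for Alb, Gm29216, Gm28661 and Apoa2.

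Of the Mup genes in that ranking, Mup13, Mup8 and Mup2 led with mean levels of 28028, 27982 and 27623 TPM. Each lies in the cluster on chromosome 4, and 81.8%, 66.0% and 97.3% of their longest transcripts occur word for word, in windows of 100 bases, in transcripts of other genes. The order among the Mup genes is therefore uncertain. Reads that fit several places appeared to be counted at each of them, as seen in 9 copies of the U1 small nuclear RNA gene that held 1284 to 1294 counts each in WT 1, a spread (SD 2.86) far below the counting SD of 35.9 that placing each read at 1 copy would give. Where copies are near-identical, summed counts of a family can for that reason exceed the number of reads, and the Mup shares below are shares of counts as deposited.

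The 13 mtDNA-encoded mRNAs, which code for subunits of the respiratory chain and ATP synthase, were led per length by mt-Co2 (19619 TPM), mt-Co1 (16190.0 TPM) and mt-Atp6 (15558 TPM). They took 6.64, 6.80, 5.11, 6.03 and 6.05% of the counts in WT 1 to 5. The share varied little between mice, at 6.12 ± 0.664% (SD, n = 5).

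Composition differed between livers mainly in the Mup genes. The 48 Mup genes and pseudogenes took 17.9, 21.8, 35.5, 24.6 and 17.99% of the counts of WT 1 to 5, a mean of 23.6 ± 7.24% (SD, n = 5), with the highest share in WT 3 and near-equal low shares in WT 1 and WT 5. The 30 listed plasma protein genes took 16.5, 15.4, 12.8, 15.3 and 16.2% and Alb alone 5.75, 5.48, 4.46, 5.79 and 6.21%. Both were lowest in WT 3, where the Mup share was highest. On the TMM scale, which corrects for the Mup load, Alb was 56224, 54437, 52266, 58404 and 54203 CPM, a ratio of 1.12 between the highest and the lowest mouse. The 100 most abundant genes of each library took 55.3, 57.1, 63.8, 58.2 and 53.4% of its counts. Over nuclear genes other than Mup genes the corresponding share was 45.0, 44.2, 43.2, 43.9 and 42.6%, with a ratio of 1.05 between the extremes. Only 34 genes held 50% of the counts in WT 3, against 78 in WT 5 and 68 in WT 1.

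**Figure D2:**
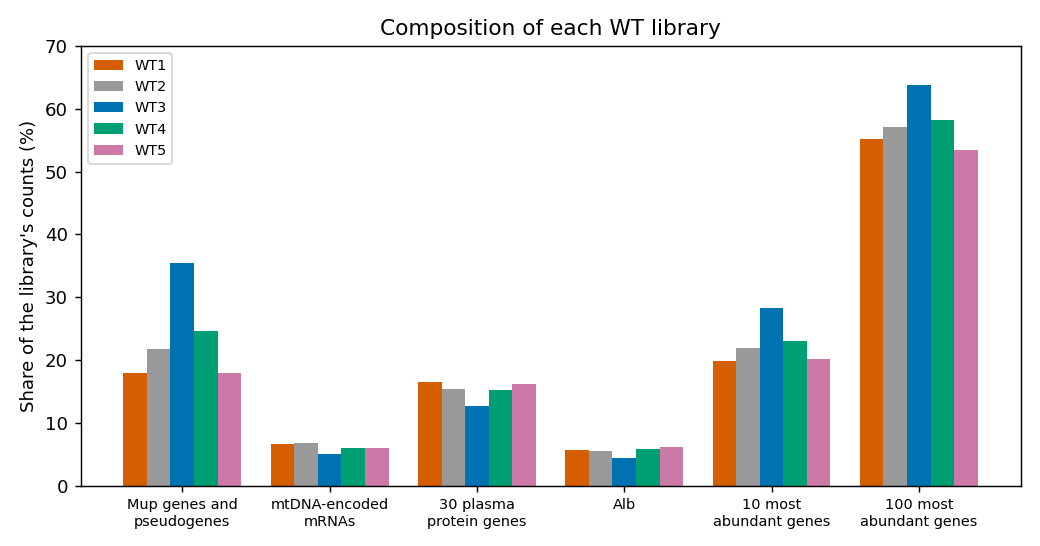
Share of each WT library's counts, in percent on an axis from 0, taken by 6 groups of genes, with 1 bar per mouse. The Mup share of WT 3 was 35.5%, against 17.9 to 24.6% in the other mice, while the other single groups differed less.

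The spread between livers was then described gene by gene. For each gene it was given as the SD of log2 CPM (prior count 2) over the 5 mice, and as the ratio of the highest to the lowest mouse on the same scale. The median SD was 0.20 and the median ratio 1.40. Of the 12266 genes tested, 1306 (10.6%) had a ratio of at least 2, 212 a ratio of at least 4 and 95 a ratio of at least 10, whereas in 3103 (25.3%) the highest mouse was at most 25% above the lowest. By a chi-square test of dispersion with Benjamini-Hochberg adjustment at 0.05, 8897 genes (72.5%) differed between libraries by more than the counting of reads allows. The common biological coefficient of variation estimated by edgeR was 0.196.

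Rare transcripts were noisier. The median SD fell from 0.29 at 1 to 3 CPM to 0.15 at 30 to 100 CPM, and it was 0.18 in the 116 genes over 1000 CPM. In that top class, which holds most Mup genes, 18.1% of genes had a ratio of at least 2, against 5.13% at 100 to 1000 CPM.

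**Figure D3:**
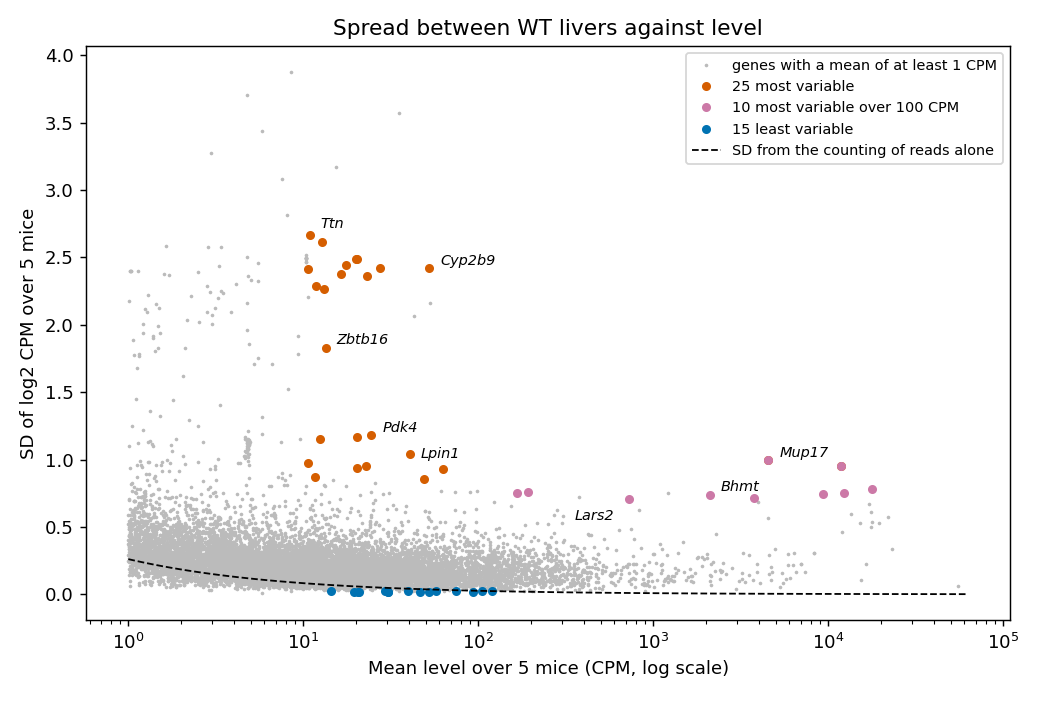
SD of log2 CPM over the 5 mice against the mean level in CPM on a log axis, for 12266 genes in grey, with the named most and least variable genes in colour and a dashed line for the SD that read counting alone gives. Among protein-coding genes over 10 CPM, the skeletal muscle gene Ttn (SD 2.66) had the largest SD and the cytochrome gene Cyp2b9 (SD 2.42) the largest outside muscle genes, Mup17 (SD 0.996) led the genes over 100 CPM, and the 15 least variable genes lay at or under the dashed line, except Abhd14b just above it.

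The mice contributed unequally to this spread. WT 1 held 30.1% and WT 5 24.5% of the squared deviation over all genes tested, WT 3 held 19.5%, WT 2 14.2% and WT 4 11.7%. The widest pair was WT 1 and WT 5, with a root mean square difference of 0.62 in log2 CPM and 794 genes at least 2-fold apart, and the closest was WT 4 and WT 5, with 0.35 and 164 genes. Among the 305 protein-coding genes with a mean of at least 10 CPM and a ratio of at least 2, WT 5 was the highest mouse in 132 and WT 1 in 92, while WT 1 was the lowest in 137 and WT 5 in 89. WT 1 alone stood apart from 4 mice that lay within a ratio of 1.5 of each other in 95 of these genes, 42 times as the highest and 53 times as the lowest. Without WT 1 the number of genes with a ratio of at least 2 fell to 684, and without WT 5 to 767.

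WT 1 and WT 5 also differed by transcript length. Among 6190 protein-coding genes with a mean of at least 10 CPM, the tenth with the shortest transcripts (median 1020 bases) deviated from the 5-mouse mean by a median of 0.28 in WT 1 and -0.29 in WT 5 on the log2 scale. The tenth with the longest transcripts (median 8303 bases) deviated by -0.25 in WT 1 and 0.23 in WT 5. WT 2, WT 3 and WT 4 stayed within -0.05 and 0.09 at the short end and within -0.06 and 0.05 at the long end. Where this gradient touches a result, the ratio after taking off each library's median deviation at like length is given beside it as the length-adjusted ratio. After this adjustment 1084 genes (8.84%) had a ratio of at least 2. Whether the gradient comes from the animals or from the libraries was not tested.

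**Figure D4:**
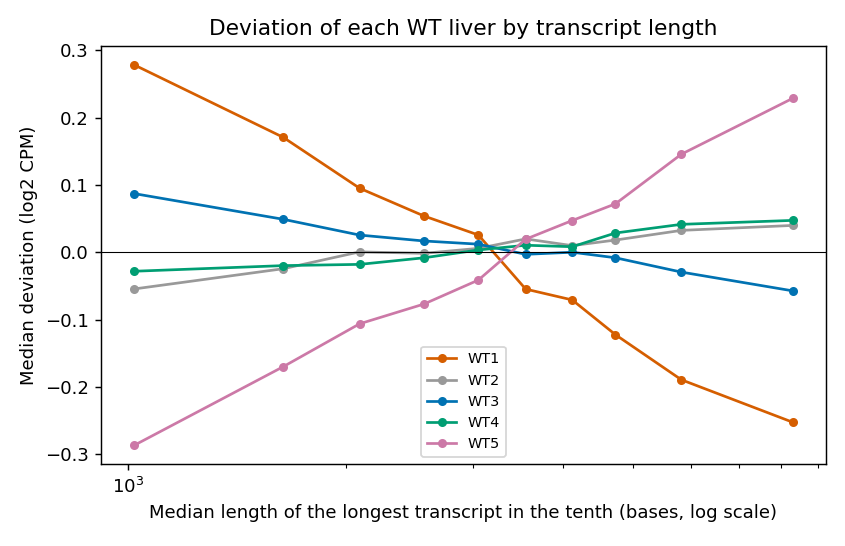
Median deviation of each WT liver from the 5-mouse mean, in log2 CPM, against the median length of the longest transcript, on a log axis in bases, over 10 classes of length among 6190 protein-coding genes. The line of WT 1 ran from 0.28 down to -0.25, that of WT 5 from -0.29 up to 0.23, and the lines of the other mice stayed between -0.06 and 0.09.

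The lists of genes described below were read against the 10.6% of all genes tested that had a ratio of at least 2. This share depended on level. It was 25.5% at 1 to 3 CPM and 4.93% among protein-coding genes with a mean of at least 10 CPM, and the lists were not matched for level. The Mup genes held 6 of the 10 widest places among protein-coding genes over 100 CPM. Of 19 protein-coding Mup genes tested, all had their highest CPM in WT 3 (18 with library totals, where Mup21 was highest in WT 4) and 17 had a ratio of at least 2. The widest was Mup17, with 1761, 3924, 10439, 4332 and 2245 CPM in WT 1 to 5 (SD 0.996 in log2, ratio 5.93), followed by Mup7 with 5402, 8349, 26337, 13214 and 5766 CPM (ratio 4.88). WT 3 stood alone on top in both, WT 4 came next, and WT 1 and WT 5 were lowest. Because these copies share reads, the members with little shared sequence were read separately. Mup20, whose product darcin is the male pheromone that attracts females, had 2729.9, 2844, 7435, 3822 and 2009 CPM with 38.8% shared sequence. Mup21 had 85.9, 116, 176, 176 and 58.1 CPM with 4.50% shared, Mup5 had 21.2, 25.8, 60.5, 39.2 and 45.1 CPM with 1.33% shared, and Mup3 had 6155, 5194, 7683, 6029 and 4403 CPM with 2.94% shared. All of these were again highest in WT 3, by a narrow margin over WT 4 in Mup21, with ratios of 3.70, 3.03, 2.85 and 1.75. Without WT 3 the SD was 0.62 for Mup17, 0.59 for Mup7, 0.46 in place of 0.75 for Mup12 and 0.38 in place of 0.72 for Mup20.

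Most of the male-biased list was also highest in WT 3. In the list of 18 genes, which includes Mup7, Mup1 and Mup20, 11 of 18 had a ratio of at least 2, with a median ratio of 2.65, and 14 were highest in WT 3 (10 with library totals). Without the 3 Mup genes, 8 of 15 had a ratio of at least 2 and 11 were highest in WT 3. Hsd3b5, a steroid dehydrogenase made in male liver, was at 1.18, 1.89, 30.9, 10.4 and 2.51 CPM, so that WT 3 and WT 4 stood over the other 3 mice. Cyp4a12a, a fatty acid hydroxylase, was at 133, 140.3, 260.1, 227 and 69.6 CPM (ratio 3.73, SD 0.75 and 0.49 without WT 5), a value shared in part with its neighbour Cyp4a12b (35.8% of its transcript). The bile acid and steroid carrier Slco1a1 was at 79.0, 104, 254, 163 and 165 CPM, and the oxysterol hydroxylase Cyp7b1 at 53.4, 59.5, 131, 78.3 and 63.6 CPM. WT 3 was the highest mouse in each of these genes. Nudt7, a peroxisomal hydrolase of coenzyme A, was at 209.9, 127, 305, 239.6 and 82.8 CPM, with WT 3 highest and WT 5 lowest (ratio 3.69).

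Several female-biased genes ran the other way. Of 20 listed, 9 were tested and 4 had a ratio of at least 2, and 5 of the 9 were lowest in WT 3 (8 with library totals). Cyp2b9, a cytochrome P450 that is usually higher in female liver, was at 79.1, 71.8, 1.72, 16.5 and 92.6 CPM, with an SD of 2.42 and a ratio of 51.8. Of the 12 protein-coding genes over 10 CPM with the largest SD, it was the only one that is no muscle gene. WT 3 was far below the others and WT 4 intermediate, while WT 1, WT 2 and WT 5 lay close together. Without WT 3 its SD was 1.16. Cyp17a1, the steroid 17-hydroxylase, was at 34.4, 25.6, 11.8, 17.95 and 38.7 CPM, again lowest in WT 3. Cyp3a44 followed another order, with 2.11, 11.5, 1.69, 10.9 and 2.74 CPM and high values in WT 2 and WT 4, and its relative Cyp3a16 was at 1.29, 1.48, 0.338, 1.29 and 1.89 CPM. Cyp3a44 shares 5.37% of its sequence with other genes and Cyp3a16 0.123%. Bcl6, a repressor of female-biased genes in male liver, was at 9.34, 10, 30.3, 38.8 and 13.3 CPM (SD 0.94), high in WT 3 and WT 4. Socs2, a feedback inhibitor of growth hormone signalling, was at 5.72, 2.68, 11.4, 8.67 and 4.43 CPM, also with WT 3 and WT 4 on top. WT 3 and then WT 4 were thus highest in Hsd3b5, Cyp4a12a and Mup7 and lowest in Cyp2b9 and Cyp17a1, in mice that all expressed the Y-linked genes.

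Skeletal muscle transcripts made up most of the top of the ranking by spread. All 15 listed muscle genes had a ratio of at least 2, with a median ratio of 40.9, and their summed level was 66.8, 28.0, 13.8, 376 and 501 CPM in WT 1 to 5. WT 4 and WT 5 were high, WT 1 was lower and WT 2 and WT 3 lowest. Ttn, which encodes the giant sarcomere protein titin, had the largest SD of all protein-coding genes over 10 CPM, with 2.07, 1.48, 0.304, 18.7 and 31.7 CPM (SD 2.66). The alpha-actin of skeletal muscle, Acta1, was at 7.80, 3.63, 1.42, 52.3 and 71.5 CPM, and creatine kinase Ckm at 6.01, 2.11, 0.878, 30.1 and 43.0 CPM. Myh2, Atp2a1, Myh1, Mb, Tnni2, Tnnt3 and Tnnc2, which encode fast myosins, the calcium pump, myoglobin and troponins, had ratios of 64.7, 49.1, 55.5, 38.7, 40.9, 41.3 and 36.4, each with WT 4 and WT 5 above the other mice. Myh4, the myosin of the fastest fibres, was higher in WT 5 (47.5 CPM) than in WT 4 (12.8 CPM). Each muscle gene named so far was below 10 CPM in WT 1, WT 2 and WT 3. These genes thus met the ranking's mean of 10 CPM only through WT 4 and WT 5, and their place at its top follows in part from that filter. In bulk tissue, fewer cells of a type and less RNA per cell cannot be told apart, and the origin of these transcripts was not tested. Slc25a4, the adenine nucleotide carrier of muscle and heart, was at 6.65, 4.92, 4.79, 22.3 and 23.6 CPM, Tpm2, a tropomyosin, at 15.9, 10.3, 10.5, 34.8 and 42.2 CPM, and Des, the intermediate filament desmin, at 5.19, 4.48, 3.11, 15.6 and 19.4 CPM. WT 4 and WT 5 were on top in these 3 genes, as in the muscle list.

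Some genes of hormone and fasting responses were high in the same livers. Zbtb16, a transcription factor induced by glucocorticoids, was at 1.36, 3.97, 7.02, 16.3 and 38.4 CPM (SD 1.83, ratio 27.0), lowest in WT 1 and highest in WT 5. Fkbp5, another glucocorticoid target named after seeing its values, had 17.5, 21.2, 33.4, 34.4 and 56.9 CPM, with the same ranking of the mice. Pdk4, the kinase that shuts off pyruvate dehydrogenase in fasting, was at 11.02, 8.49, 12.1, 35.5 and 55.5 CPM (ratio 6.495). Lpin1, a phosphatidate phosphatase and coactivator induced in fasted liver, was at 15.3, 19.0, 31.7, 40.9 and 95.7 CPM (ratio 6.24, length-adjusted 5.08, SD 1.04 and 0.65 without WT 5). WT 5 was highest in all 4 genes, and WT 4 came next. Pdk4 and Lpin1 are also expressed in muscle, whose transcripts summed to 376 CPM in WT 4 and 501 CPM in WT 5, and the part of the muscle transcripts in these values was not tested.

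Within the list of insulin-responsive genes, 10 of 18 had a ratio of at least 2 (median ratio 2.09), 12 of the 18 were highest in WT 5 and 10 were lowest in WT 1. Long transcripts ran in the same direction in these 2 mice. After length adjustment 9 of the 18 had a ratio of at least 2, with a median ratio of 1.86. Irs2, the insulin receptor substrate that insulin represses, was at 1.04, 2.05, 1.96, 3.66 and 5.92 CPM. Igfbp1, a binding protein for insulin-like growth factors that is likewise lowered by insulin, was at 15.1, 13.8, 15.6, 35.8 and 41.5 CPM, with WT 4 and WT 5 apart from the other 3. Igfbp2 was highest in WT 1 (509, 266, 342, 220.0 and 182 CPM, ratio 2.79, length-adjusted 2.08). Leaving out WT 1 reduced the count in this list from 10 to 5 genes, and leaving out WT 5 to 7.

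B cell and plasma cell transcripts were high in another pair of mice. The summed level of the lymphocyte list was 25.8, 279, 16.1, 46.7 and 231 CPM. Of 17 listed genes, 8 reached a mean of 1 CPM and were tested, and all 8 had a ratio of at least 2 (median 12.9). Ighm, the heavy chain of immunoglobulin M, was at 6.01, 112, 5.54, 20.96 and 120.4 CPM, and Igkc, the kappa light chain, at 7.55, 116, 4.15, 14.7 and 73.5 CPM. WT 2 and WT 5 were far above the other 3 mice in both. Ighg2b, a heavy chain of immunoglobulin G, was at 0.429, 11.6, 0.507, 0.813 and 5.92 CPM, with the same mice on top. The B cell markers Ms4a1 and Cd79a, at 0.572, 2.90, 0.236, 0.711 and 2.22 CPM and 0.572, 2.62, 0.405, 0.711 and 2.19 CPM, had the same mice on top. Ighg2b, Ms4a1 and Cd79a were below 1 CPM in WT 1, WT 3 and WT 4. They reached the mean of 1 CPM only through WT 2 and WT 5, so their wide ratios follow in part from that filter. Igha was the exception, with 3.93, 1.74, 0.912, 1.46 and 1.81 CPM and its highest level in WT 1. T cell markers were sparse, Cd3e at 0.107, 0.820, 0.236, 0 and 0.437 CPM. Jchain, which joins antibody units, was at 1.93, 22.5, 1.35, 4.27 and 16.4 CPM. Ighg1, outside the list and chosen after its values were seen, had 2, 1195, 1, 2 and 167 counts. The proliferation genes Mki67 (1.14, 2.74, 0.608, 1.15 and 2.92 CPM) and Top2a (0.608, 2.24, 0.608, 0.914 and 2.19 CPM) were likewise highest in WT 2 and WT 5, and whether they mark lymphocytes was not tested.

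Interferon-stimulated genes were set apart by WT 1. Type I and type II interferons induce these antiviral genes through STAT and IRF factors, many of which bind the interferon-stimulated response element, written here as the letters GAAANNGAAA. Of 30 listed genes tested, 16 had a ratio of at least 2 and 27 were highest in WT 1, with a median ratio of 2.30. The summed level was 763, 475, 479.8, 476 and 435 CPM, so that WT 1 stood over 4 mice that lay close together. Ifit1, which binds foreign RNA ends, was at 35.8, 9.12, 9.12, 10.4 and 9.94 CPM (ratio 3.91). The ubiquitin-like modifier Isg15 was at 27.3, 9.75, 9.69, 9.25 and 7.05 CPM, its protease Usp18 at 24.1, 8.80, 9.56, 8.98 and 6.82 CPM, and the chemokine Cxcl9 at 10.4, 4.29, 5.84, 2.98 and 6.76 CPM. After length adjustment 18 genes had a ratio of at least 2, and without WT 1 only 1 did.

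The promoters of the genes of this list with the widest ratios are shown because the genes were all high in the same liver. Of the 30 listed genes, 22 had a RefSeq promoter (GRCm38.p6), of which 14 (63.6%) held GAAANNGAAA on either strand within 250 bases before the start, against 2.98% of all 32851 RefSeq promoters of that length. The list was made of genes induced by interferons, so this share describes the list and says nothing of WT 1. Cxcl9 (ratio 3.44) and Oasl1 (ratio 2.56) held 0 matches, whereas Oas1g (ratio 1.45) held 2. The 4 with the widest ratio that held it are given 5′ to 3′ on the gene's strand, ending at the base before the start, with matches on either strand in capitals, where overlapping matches run together: Ifit1 at chr19:34640639-34640888 on the plus strand, Isg15 at chr4:156200819-156201068 on the minus strand, Igtp at chr11:58199306-58199555 on the plus strand and Rsad2 at chr12:26456453-26456702 on the minus strand.
Ifit1: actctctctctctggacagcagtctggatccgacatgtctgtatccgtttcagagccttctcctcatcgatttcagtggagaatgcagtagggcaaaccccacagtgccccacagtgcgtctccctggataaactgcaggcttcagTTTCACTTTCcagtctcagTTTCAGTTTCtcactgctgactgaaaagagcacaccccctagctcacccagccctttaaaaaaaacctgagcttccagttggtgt
Isg15: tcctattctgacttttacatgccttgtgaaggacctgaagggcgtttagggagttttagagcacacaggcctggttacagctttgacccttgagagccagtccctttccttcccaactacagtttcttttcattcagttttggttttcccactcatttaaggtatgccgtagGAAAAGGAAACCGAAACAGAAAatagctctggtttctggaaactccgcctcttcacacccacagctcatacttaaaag
Igtp: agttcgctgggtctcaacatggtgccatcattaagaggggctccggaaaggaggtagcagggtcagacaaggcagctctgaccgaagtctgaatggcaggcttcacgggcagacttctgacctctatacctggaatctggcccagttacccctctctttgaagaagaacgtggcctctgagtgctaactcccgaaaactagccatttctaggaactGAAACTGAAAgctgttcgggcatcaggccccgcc
Rsad2: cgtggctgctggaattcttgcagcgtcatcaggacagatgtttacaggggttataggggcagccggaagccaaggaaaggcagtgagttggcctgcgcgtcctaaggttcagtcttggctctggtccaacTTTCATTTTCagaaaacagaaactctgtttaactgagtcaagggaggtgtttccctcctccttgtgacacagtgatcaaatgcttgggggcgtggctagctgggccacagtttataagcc
Ifit1 held 2 matches and Isg15 held 3 overlapping ones. Igtp, a GTPase of the immunity-related family, held 1 match beginning 34 bases before the start and was at 66.3, 26.8, 28.5, 24.7 and 22.3 CPM. Rsad2, the antiviral enzyme viperin, held 1 match beginning 120 bases before the start and was at 27.5, 12.1, 9.25, 11.9 and 14.3 CPM. WT 1 was highest in both. A match is a description of letters and was not tested as a binding site.

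Antigen presentation and immunoproteasome genes followed WT 1 too. Of 7 tested genes of the major histocompatibility complex (MHC) class II list, 5 had a ratio of at least 2 and all 7 were highest in WT 1, and without WT 1 only 1 had a ratio of at least 2. The class II chains H2-Eb1, H2-Aa and H2-Ab1 were at 36.7, 20.4, 12.2, 13.9 and 19.6 CPM, 39.8, 24.2, 13.7, 17.4 and 26.6 CPM and 42.2, 24.1, 15.4, 16.8 and 22.9 CPM, and Cd74, the invariant chain, at 89.4, 56.1, 38.9, 39.4 and 61.2 CPM. WT 2 and WT 5 lay between WT 1 and the low WT 3 and WT 4. The immunoproteasome subunit genes Psmb8, Psmb9 and Psmb10 were chosen after their values were seen. Psmb8 was at 39.9, 21.6, 24.0, 21.5 and 16.7 CPM and Psmb9 at 24.9, 10.5, 11.9, 10.2 and 9.56 CPM, with length-adjusted ratios of 2.03 and 2.49. Psmb10 was at 26.4, 15.1, 21.3, 17.8 and 11.8 CPM, with WT 3 next to WT 1 (ratio 2.23, length-adjusted 1.66). Kupffer cell markers, by contrast, had 0 of 15 at a ratio of at least 2 (2 with library totals) and summed levels of 519, 509, 507, 527 and 569 CPM. The widest, the lysozyme gene Lyz2, had a ratio of 1.65.

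WT 1 carried further signals. The metallothioneins Mt1 and Mt2, which bind zinc and respond to metals and stress, were at 195, 48.4, 66.0, 72.3 and 67.4 CPM and 117, 30.3, 30.9, 29.6 and 35.7 CPM, with WT 1 alone high and ratios of 4.02 and 3.96. Without WT 1 the SD of Mt2 was 0.12 in place of 0.85. Small nuclear RNAs, which have no poly(A) tail, summed to 471, 17.2, 9.49, 23.5 and 38.3 CPM. This sum holds the 9 U1 copies, whose reads appeared to be counted at each copy, so it overstates the number of reads. Gm42418, a transcript that overlaps a ribosomal RNA repeat, was at 6507, 4661, 1829, 3162 and 3787 CPM, and Lars2, the mitochondrial leucyl-tRNA synthetase gene, at 1327, 676, 331, 623 and 686 CPM. WT 1 was the highest mouse in each of these, and WT 3 the lowest in the last 3. The merged exons of Lars2 span 11089 bases, against 3894 bases in its longest transcript. Counts per gene do not show which part the reads fell on, so its spread need not be that of the synthetase mRNA. Exocrine pancreas genes were detected chiefly in WT 1, where Amy2a5, pancreatic amylase, had 136 counts against 1 to 3 in each other liver. The summed pancreas list was 16.7, 4.67, 4.76, 4.74 and 5.22 CPM, to which Cela1, expressed in all 5 livers, gave the largest part. The part of these signals in the other results of WT 1 was not tested.

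Sterol synthesis and protein folding genes were low in WT 1. Of 25 sterol genes, 7 had a ratio of at least 2 (median ratio 1.61), and 17 of the 25 were lowest in WT 1 (13 with library totals). The squalene epoxidase Sqle was at 9.09, 16.8, 19.1, 15.5 and 21.7 CPM, and the sterol sensor Insig1 at 52.6, 101, 99.9, 105 and 122 CPM. WT 2 to WT 5 lay close together in Insig1. Hsd17b7, a reductase of the same pathway, was at 18.5, 31.6, 26.2, 29.1 and 44.5 CPM. After length adjustment 7 genes had a ratio of at least 2, without WT 1 it was 0 genes, and without WT 5 it was 4. The sterol response element TCACNCCAC was found on either strand within 250 bases before the start of 1 of the 17 listed genes with a RefSeq promoter (5.88%), Hmgcs1, and in 1.05% of all promoters of that length. Where these letters were absent, nothing follows for the factor.

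In the unfolded protein response list, 6 of 19 had a ratio of at least 2, 14 were lowest in WT 1 (15 with library totals) and 13 highest in WT 3 (2 with library totals). Asns, asparagine synthetase, was at 0.680, 0.536, 2.16, 1.32 and 0.845 CPM (ratio 3.70). Sdf2l1, an endoplasmic reticulum chaperone partner, was at 6.51, 15.6, 22.6, 20.5 and 15.9 CPM, and Hyou1, a large chaperone of the same compartment, at 61.0, 104, 125, 135 and 118 CPM. Dnajb9, another chaperone partner there, was at 36.8, 58.5, 77.5, 73.7 and 54.5 CPM. WT 1 was lowest in the last 3. In the heat shock and cold response list, of chaperones and temperature-responsive genes, 3 of 17 had a ratio of at least 2. Of the 17, 10 were lowest in WT 1 (7 with library totals), with Hsph1 at 44.7, 86.0, 79.8, 77.2 and 101 CPM. Hspa1a and Hspa1b share 48.6% and 49.9% of their sequence and were lowest in WT 1, with ratios of 2.37 and 2.12. Without WT 1, 1 of the unfolded protein response genes and 0 of the heat shock and cold response list had a ratio of at least 2. Without WT 5, 0 of the heat shock and cold response list did.

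Clock genes can report the hour of collection. Of 19 tested, 5 had a ratio of at least 2, 13 were lowest in WT 1 and 11 highest in WT 5. Low in WT 1 and high in WT 5 is also the direction of the length gradient for long transcripts. After length adjustment 5 had a ratio of at least 2, and the median ratio was 1.40 in place of 1.61. Per1, a repressor in the core loop, was at 10.1, 18.05, 19.2, 20.8 and 24.3 CPM, Nr1d1, the receptor REV-ERBα, at 32.8, 45.5, 49.98, 53.9 and 68.4 CPM, and the repressors Nfil3 and Bhlhe40 at 10.5, 18.5, 21.5, 31.8 and 23.6 CPM and 20.3, 34.4, 31.6, 37.8 and 49.8 CPM. WT 1 was lowest in Per1, Nr1d1, Nfil3 and Bhlhe40. Arntl, the activator that runs in antiphase to Nr1d1, was at 4.22, 2.97, 2.30, 2.78 and 4.26 CPM, near-equal in WT 1 and WT 5. Without WT 1, 0 of the clock genes had a ratio of at least 2, and without WT 5, 2 did. The times of collection were not given in the sources used here.

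The enzymes and transporters that handle fructose had a share of wide members (12.5%) near the 10.6% over all genes. It was above the 4.93% among protein-coding genes with a mean of at least 10 CPM. Of 16 genes, 2 had a ratio of at least 2, and the median ratio was 1.32, against 1.40 over all genes. Per length, the members reported here differed in level. Sorbitol dehydrogenase (Sord) stood at 645 TPM, the aldehyde dehydrogenase Aldh2 at 489.9 TPM and ketohexokinase (Khk) at 221 TPM, above glycerate kinase (Glyctk, 55.7 TPM), the transporter Slc2a2 (44.6 TPM) and triokinase (Tkfc, 36.0 TPM). Tkfc was at 85.6, 99.3, 106, 103 and 113 CPM. Khk was at 321, 271, 218, 248 and 172 CPM (ratio 1.87, length-adjusted 1.52), highest in WT 1 and lowest in WT 5. Slc2a5, the intestinal fructose transporter GLUT5, was low at 3.65 ± 0.653 CPM (SD, n = 5). Aldh1b1, a mitochondrial aldehyde dehydrogenase, was among the genes past a ratio of 2, with 38.2, 26.6, 14.8, 23.8 and 17.4 CPM, and without WT 1 the count was 0.

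Of the fat synthesis genes, 4 of 19 had a ratio of at least 2, with 1 after length adjustment, 2 without WT 1 and 0 without WT 5. Stearoyl-CoA desaturase 1 (Scd1), the highest of them per length at 1498 TPM, was at 5521, 5431, 3343, 5967 and 2435 CPM, low in WT 3 and WT 5. Fatty acid synthase (Fasn) was at 30.3, 44.5, 28.4, 37.7 and 44.9 CPM, a ratio of 1.58. Gpam, the first enzyme of glycerolipid synthesis, and Acacb, which makes malonyl-CoA at mitochondria, were highest in WT 5, at 34.4, 61.7, 42.2, 56.2 and 83.3 CPM and 18.4, 12.8, 14.3, 18.9 and 29.0 CPM. Their length-adjusted ratios were 1.84 and 1.95. Thrsp, a small regulator of fat synthesis, was at 21.3, 18.3, 10.97, 16.3 and 10.1 CPM. Among lipid droplet genes, 4 of 21 had a ratio of at least 2, led by Lpin1, and 2 did without WT 1. Cidea, a droplet fusion protein that appears in steatotic liver, was at 7.73, 5.52, 6.38, 18.7 and 3.44 CPM, highest in WT 4, and the lipase inhibitor G0s2 at 352, 173, 255, 245 and 231 CPM, highest in WT 1. Mogat1, an acyltransferase that makes diglyceride, was at 9.19, 7.29, 3.98, 6.40 and 4.90 CPM.

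In fat oxidation, 2 of 25 genes had a ratio of at least 2. These were Ppara, the receptor itself, at 37.9, 60.3, 52.1, 66.5 and 104 CPM, and Fgf21, the fasting hormone of liver, at 10.7, 6.59, 11.9, 9.72 and 15.6 CPM, both highest in WT 5. Without WT 5 neither passed it, and without WT 2 only 1 did. In glucose and glycogen metabolism, 4 of 20 did, and 2 did without WT 1, without WT 2 or without WT 5. Ppp1r3g, a glycogen-targeting phosphatase subunit, was at 1.11, 1.20, 1.42, 1.69 and 2.62 CPM, and the aspartate aminotransferase Got1 at 157, 71.5, 87.6, 104 and 112 CPM. G6pc, which releases free glucose, was at 187, 118, 101, 175 and 206 CPM, and Pck1, which makes phosphoenolpyruvate, at 1407, 1622, 1642, 2075 and 2192 CPM with a ratio of 1.56. In bile acid metabolism, 5 of 19 did, among them Cyp7a1, the rate-limiting enzyme of bile acid synthesis, at 76.5, 69.0, 111, 75.3 and 42.2 CPM, highest in WT 3 and lowest in WT 5. Slco1a1 and Cyp7b1, above, were also among them, as was the canalicular exporter Abcc2 (156, 262, 218, 251 and 315 CPM, length-adjusted ratio 1.47). The count was 3 after length adjustment, without WT 1 or without WT 5, and 2 without WT 3.

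Zonation markers were read for both ends of the lobule. Of 14 pericentral genes, 1 had a ratio of at least 2, the ammonia transporter Rhbg, at 1.54, 0.757, 1.05, 1.32 and 0.466 CPM, which did not pass it without WT 1, WT 4 or WT 5. Of 14 periportal genes 3 did, Cdh1 (6.55, 6.31, 8.24, 8.87 and 3.12 CPM), the histidine ammonia-lyase Hal (322, 229, 173, 215 and 157 CPM) and the serine dehydratase Sds (199.7, 97.9, 111, 134 and 101 CPM), of which 1 was left without WT 1 or without WT 5. Bhmt, which remethylates homocysteine, was at 3848, 2716, 1295, 1323 and 1302 CPM, high in WT 1 and WT 2 and near-equal in the other 3 (ratio 2.97). Hepatocyte transcription factors had 2 of 20 at a ratio of at least 2, Ppara and Onecut1 (1.57, 1.36, 2.94, 2.88 and 1.78 CPM), with Hnf4a at 281, 406, 383, 392 and 494 CPM (ratio 1.76, length-adjusted 1.53). The count was 1 without WT 2 or without WT 5.

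Among secreted proteins, 1 of 30 plasma protein genes had a ratio of at least 2, Apoc3 at 2115, 1407, 1400.0, 1513 and 989 CPM, and 0 after length adjustment, without WT 1 or without WT 5. Of the acute phase genes 8 of 23 had such a ratio, and 4 did without WT 5. Serum amyloid A1 (Saa1) was at 37.7, 75.6, 108, 71.8 and 21.2 CPM (SD 0.93), highest in WT 3 and lowest in WT 5, and Saa2 at 16.2, 17.5, 24.9, 26.6 and 8.75 CPM. Hamp, the iron hormone hepcidin, was at 826, 705, 720.1, 578 and 357 CPM, and its relative Hamp2 at 12.3, 11.1, 16.5, 5.86 and 11.2 CPM, low in WT 4 alone. Alas1, the first enzyme of heme synthesis, was at 464, 329, 704, 551 and 571 CPM, with WT 3 highest. These were 3 of 19 genes of iron and heme at a ratio of at least 2. Of the xenobiotic receptor targets, 8 of 22 had a ratio of at least 2, with Gsta1 (81.8% shared sequence) at 3.90, 3.60, 2.43, 4.50 and 1.17 CPM the detoxifying transferase Gsta2 (35.0% shared) at 15.1, 15.2, 10.9, 10.1 and 5.19 CPM and Tiparp, a target of the dioxin receptor, at 1.65, 3.22, 3.58, 3.59 and 4.78 CPM. The count was 4 without WT 1 and 5 without WT 5.

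Ribosomal and respiratory chain genes, which are mostly short, lay in the same order as the length gradient. Of 30 ribosomal protein genes 0 had a ratio of at least 2, and 1, Rps24, after length adjustment, but 21 were highest in WT 1 and 28 lowest in WT 5 (28 and 10 with library totals), with mean deviations of 0.21 and -0.28. Nuclear genes of the respiratory chain had 26 of 30 highest in WT 1 and 27 lowest in WT 5 (26 and 7 with library totals), and 2 of 30 had a ratio of at least 2, against 0 after length adjustment, without WT 1 or without WT 5. Ndufa2, of complex I, was at 127, 73.9, 90.6, 81.4 and 58.5 CPM (ratio 2.16, length-adjusted 1.53). After length adjustment the median ratio of the respiratory chain list went from 1.47 to 1.21 and that of the ribosomal list from 1.44 to 1.17, against 1.40 and 1.33 over all genes. The mtDNA-encoded mRNAs shared this order only in part. Of these 13, 8 were highest in WT 2 and 4 in WT 1, and 8 were lowest in WT 5 (5, 4 and 2 with library totals). With library totals, 8 were lowest in WT 3 instead, so the low place of WT 5 depended on the scaling. The genes mt-Atp8 (424, 969, 658, 735 and 942 CPM) and mt-Nd4l (266, 561, 345, 463 and 511 CPM) had a ratio of at least 2, and both were lowest in WT 1. These genes overlap their neighbours mt-Atp6 and mt-Nd4, so that their reads are partly shared. Without WT 1 neither had a ratio of at least 2, and without WT 2 only 1 did.

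**Figure D5:**
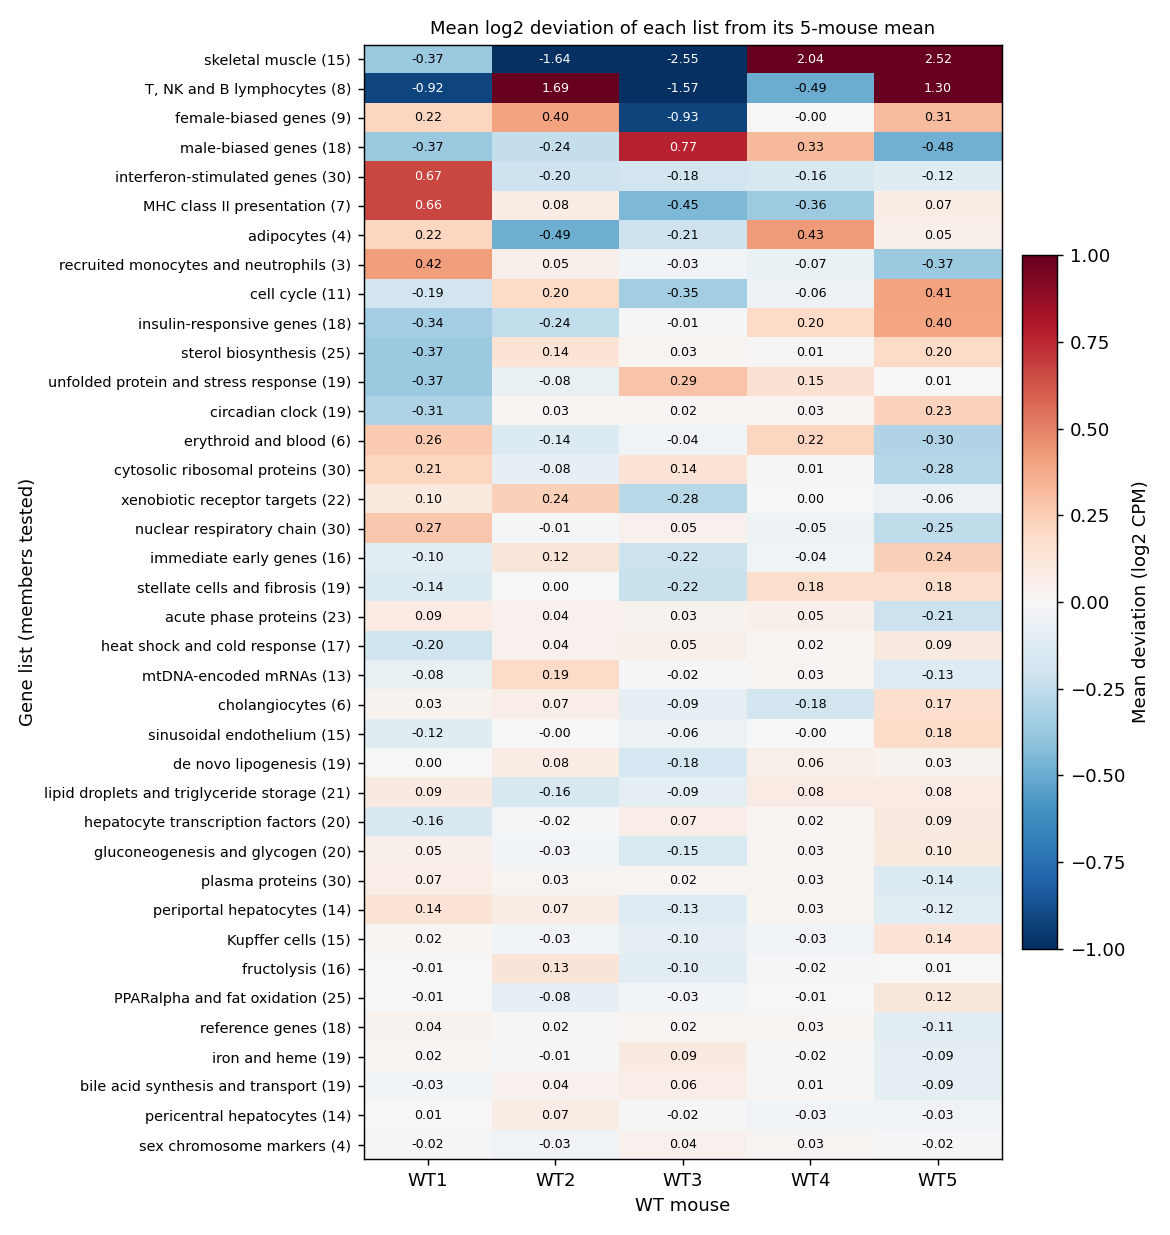
Mean deviation of each gene list from the 5-mouse mean, in log2 CPM, for each WT mouse, with red above and blue below the mean, colours ending at -1 and 1, and the number of members tested in brackets for lists with at least 3. Muscle genes ran from -2.55 in WT 3 to 2.52 in WT 5, male-biased genes stood at 0.77 in WT 3, and interferon-stimulated genes at 0.67 in WT 1.

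Markers of other resident cells were read in the same way. Sinusoidal endothelial genes had 1 of 15 and stellate cell and fibrosis genes 2 of 19 at a ratio of at least 2. The endothelial gene was the cadherin Cdh5 (7.94, 12.8, 11.3, 12.3 and 16.5 CPM), with none left after length adjustment, without WT 1 or without WT 5, and 3 with library totals. The stellate cell genes past it were Des, above, and the smooth muscle actin Acta2 (2.25, 2.15, 1.42, 2.54 and 1.11 CPM), of which 1 was left without WT 4 or without WT 5, while 6 passed it with library totals in place of TMM. The fibrillar collagen genes Col1a1 and Col3a1 were at 1.29, 1.99, 1.28, 2.54 and 2.36 CPM (ratio 1.93) and 7.98, 12.6, 7.23, 12.8 and 12.8 CPM (ratio 1.77). Markers of recruited neutrophils and monocytes were scarce, with 3 of 15 tested, of which the receptor Cxcr2 (2.04, 1.32, 1.18, 0.881 and 0.641 CPM) had a ratio of at least 2, and S100a8 and Ly6c2 at 0.390 ± 0.0705 and 0.616 ± 0.178 CPM (SD, n = 5). Red cell transcripts summed to 1428, 961, 1019, 1314 and 859 CPM, with 1 of 6 at a ratio of at least 2, the alpha-globin gene Hba-a2, 74.5% of whose sequence is shared. Of 6 tested genes in the bile duct list, Krt23 (3.11, 1.36, 0.945, 0.440 and 2.92 CPM) and Sox9 (0.787, 1.36, 1.55, 1.90 and 1.40 CPM) passed it, and of 4 tested adipocyte genes Cidea and Lpl did, the lipoprotein lipase Lpl at 31.2, 15.5, 20.9, 28.2 and 39.0 CPM. Each of these short lists changed by at least 1 gene when a mouse was left out.

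Further genes among the 25 most variable belonged to none of these groups. Rgs16, a regulator of G protein signalling, was at 4.51, 12.8, 22.1, 26.4 and 35.4 CPM (ratio 7.75), lowest in WT 1 and highest in WT 5, with an SD of 1.16 and 0.62 without WT 1. Slc22a7, an organic anion transporter, was at 10.1, 16.1, 14.5, 14.2 and 3.67 CPM, with WT 5 alone low, an SD of 0.87 and 0.29 without WT 5. Nrep, a neuronal regeneration-related protein gene, was at 9.23, 4.73, 20.1, 14.8 and 4.29 CPM, highest in WT 3. At the foot of that ranking, Mt2 was the last gene taken (SD 0.85) and Ifit1 the next (SD 0.85). Immediate early genes, which respond within minutes to handling or signals, had 6 of 16 at a ratio of at least 2, 10 with library totals, and 3 without WT 1 or without WT 5. The transcription factors Egr1 and Nr4a1 were at 2.65, 5.17, 3.95, 4.57 and 6.82 CPM and 1.82, 3.19, 1.18, 1.39 and 2.22 CPM, and the growth inhibitors Btg2 and Gadd45g at 3.76, 4.42, 2.60, 4.23 and 7.20 CPM and 14.8, 5.36, 5.403, 9.52 and 10.6 CPM. Of the cell cycle list, 5 of 11 passed it (3 without WT 5), Mki67 and Top2a among them, with the cell cycle inhibitor Cdkn1a at 9.73, 5.87, 5.403, 8.40 and 22.1 CPM and the replication helicase subunit Mcm2 at 1.54, 2.02, 0.945, 1.253 and 2.24 CPM.

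Several noncoding transcripts, chosen after their values were seen, differed widely. The lincRNA Gm43549, of which 76.0% is shared sequence, had 3, 1335, 969, 416 and 2962 counts in WT 1 to 5. B430119L08Rik, which lies antisense beside Serpina1c, had 1.14, 0.158, 27.1, 33.3 and 14.7 CPM, and Gm10680, antisense within the Apoa1 to Apoa4 cluster, had 2.36, 0.536, 18.3, 23.9 and 8.05 CPM. Both were high in WT 3, WT 4 and WT 5 and low in WT 1 and WT 2. Reads were aligned with a stranded library type, but whether counting used strand was not stated, so reads of antisense genes and their partners cannot be told apart with certainty. The pseudogene Mup-ps18 had 0, 0, 3, 0 and 816 counts.

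At the other end of the ranking the mice were near-equal. Among 6190 protein-coding genes with a mean of at least 10 CPM, the 15 with the smallest SD were Tnpo3, Sumo3, Scamp3, Ddx47, Eif3c, Ube2q1, Sept2, Lta4h, Zwint, Csk, Hspa4, Tmed10, Ppp2r2a, Abhd14b and Herc4. Tnpo3, a nuclear import receptor for splicing factors, was at 30.2, 30.3, 30.7, 30.7 and 31.0 CPM, a ratio of 1.03. Eif3c, of the translation initiation factor eIF3, was at 94.5, 93.4, 94.4, 93.4 and 91.5 CPM, and the chaperone Hspa4 at 106, 106, 105, 105 and 102 CPM. The 15 SDs ran from 0.014 to 0.024, while read counting alone gives 0.024 to 0.069 for these genes, and 0 of the 15 differed beyond counting error. Their order among themselves thus lay within counting error, and 196 genes of the 6190 (3.17%) had an SD at or under it. Sept2 shares 82.9% of its sequence and is uncertain. Herc4 was the last gene taken (SD 0.024) and Gatad1 the next (SD 0.025). Ranked again, 1 of the 15 returned after length adjustment and 0 with library totals.

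Common reference genes had 0 of 18 at a ratio of at least 2 and a median ratio of 1.31. Psmb4, a proteasome subunit, and Polr2a, of RNA polymerase II, had ratios of 1.72 and 1.68. Psmb4, a short transcript, was highest in WT 1 and Polr2a, a long one, highest in WT 5. The length-adjusted ratio was 1.29 for both.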

How the data were processed

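Poly(A)-selected RNA of 5 WT livers was sequenced as paired reads of 100 bases. Per the submitters' processing notes, the authors used CASAVA 1.8.4, TopHat2 2.0.11 and featureCounts on GRCm38 (mm10) and deposited raw read counts per gene. Alignment used a first-strand library type. The strand setting of the counting and the treatment of reads with several alignments are not given in the sources used here. Library totals were 27314057 to 34680661 counts. From the counts, CPM were computed in edgeR 4.0.16 with TMM factors, and log2 CPM with a prior count of 2. Genes with a mean of at least 1 CPM were tested with a chi-square test of the counts against Poisson spread (4 degrees of freedom, 1-sided, adjusted by Benjamini-Hochberg), which was tested on simulated data. TPM used the merged exon length of GENCODE M21. The share of a gene's longest transcript also found in other genes, in windows of 100 bases, marked near-identical copies. Promoters came from RefSeq (GRCm38.p6).

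Named were the 15 nuclear genes with the highest TPM, the 25 protein-coding genes with the largest SD over 10 CPM and the 10 over 100 CPM, the 15 with the smallest SD, and up to 4 members of each of 39 gene lists with the largest ratio. Genes named outside this rule were chosen after their values were seen. The mice, lists and rules were chosen with earlier results of these data known. Other scalings (library totals, DESeq2 1.42.0 size factors), filters and leaving out each mouse were tried, and the length adjustment was added after seeing the data. Floors and counting SDs cover counting error only. No genotype comparison was made. Some genes that the rule names are not reported here.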

Additional observations from a re-analysis of the deposited data

Results flagged for a closer look

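Of 120 values examined over the 5 WT livers, 11 had 1 mouse set apart, with a gap to the next mouse above 0.71 of the whole range (Dixon's 95% limit for 5 samples). For independent and normally distributed values this limit would flag about 1 in 20, which is 6 of 120. Some of the values were genes chosen by their spread in these same libraries, and some sums and shares hold the same genes. The 6 is therefore no valid expectation for this set, and the flags are a description only.

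WT 1 was set apart as high in 5 values. The gap was 0.931 of the range for Mt2, 0.862 for the sum of interferon-stimulated genes, 0.954 for the sum of pancreas genes, 0.925 for the share of small nuclear RNA genes and 0.780 for the share of cytosolic ribosomal protein genes. The small nuclear RNA share holds U1 copies whose reads appeared to be counted at each copy. WT 3 was set apart as high for Mup2 (0.786), Mup18 (0.849) and Mup11 (0.738), and as low for Abhd14b (0.772) and for the share of processed pseudogenes (0.71015). The last is a share of all counts, which include the Mup load. On the TMM scale processed pseudogenes summed to 9582, 9234, 9450, 9495 and 8170 CPM in WT 1 to 5, lowest in WT 5. WT 5 was set apart as high for Myh4 (0.750). The Mup genes share reads, so these 3 are not independent of each other. Abhd14b was among the 15 least variable genes, and its values span a ratio near 1.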

How the results depend on the processing

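No paired analysis was possible because a single group was used. With library totals in place of TMM, which leaves in the Mup load, 2004 genes had a ratio of at least 2 (1306 with TMM) and 1191 a highest mouse at most 25% above the lowest (3103 with TMM), the median SD was 0.24 and the biological coefficient of variation 0.231. With a mean of at least 10 CPM, fewer genes were tested, of which 5683 differed beyond counting error and 352 had a ratio of at least 2, with a median SD of 0.16 and a coefficient of 0.173. With no filter, 6955 genes had a ratio of at least 2 and the median SD was 0.28. The length adjustment, chosen after seeing the data, gave a median SD of 0.17. The 100 most abundant nuclear genes without Mup genes took 43.8% of counts in place of 57.6% for the 100 of all genes. Leaving out 1 mouse at a time gave 7038 to 8794 genes beyond counting error, 684 to 1205 with a ratio of at least 2, 3489 to 5467 with the highest mouse at most 25% above the lowest, a median SD of 0.16 to 0.21, a coefficient of 0.162 to 0.215 and a share of 56.0 to 58.6%. The low ends for wide ratios came without WT 1 (684) and without WT 5 (767). Ranked again, 14 of the 25 most variable genes returned without WT 5, 5 of the 10 over 100 CPM without WT 3, and 0 of the 15 least variable with library totals. Of those 15, 1 returned after length adjustment, 13 with DESeq2 size factors, 7 when ranked by the tagwise dispersion of edgeR, and 2 (without WT 1) to 7 when a mouse was left out. With DESeq2 size factors, the counts of all 39 lists stayed within 1.5 times, while without WT 1 those of 24 lists did not. At 1 to 3 CPM, counting alone gives a median SD of 0.19, which limits what can be said of rare transcripts.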
